A study of Homo sapiens with 8 samples.

Results

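The m6A peaks of chromosome 19 in HepG2 cells were examined here. They are all peaks that the deposited lists place on chr19. Where peaks of any sample shared at least 1 base they were joined to a region. This gave 873 regions on chromosome 19 of 12221 over the genome, built from 2244 of 30765 peaks. HepG2 is a cell line from a human liver tumor. The cells, at passage 10 to 15, were transfected with control siRNA (siControl) or with METTL3 siRNA (siMETTL3), and both groups were harvested 48 h later with no other treatment named for these samples. Each group had 2 replicates, each with immunoprecipitated and input RNA, and the 4 peak lists of the immunoprecipitated RNA were used. The knockdown itself cannot be read from these lists, which hold no expression level. The labels do not say whether the replicates were separate cultures, so the spread between them may be technical.

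m6A is a methyl group on adenosine inside mRNA. It is written in the nucleus by a complex of METTL3, its catalytic subunit, and METTL14, and it is bound by YTH domain proteins that act on the decay and translation of the transcript. In m6A-seq, fragmented mRNA is pulled down with an antibody to m6A, and a peak is a position where the pulled-down RNA exceeds its background. Chromosome 19 is the most gene-dense human chromosome and carries long tandem clusters of zinc finger genes. Most of those encode KRAB zinc finger proteins, repressors known for silencing transposable elements.

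The gene content of chromosome 19 was taken from the RefSeq gene table of GRCh38.p14 by name and order only. It lists 1451 protein-coding genes there, 7.24% of all, and 24.5 per Mb of hg19 length is the highest gene density of the 24 chromosomes. Of these genes, 262 (18.1%) have a zinc finger symbol, against 1.64% on the other chromosomes, and they are 46.3% of all genes so named. In gene order, 238 of the 262 (90.8%) stand beside another, and 19 runs of 5 or more hold 212 of them. The longest run has 27 genes, from ZNF737 to ZNF681. The next longest have 24 genes each, from ZNF627 to ZNF791 between ACP5 and MAN2B1, and from ZNF565 to ZNF793 after COX7A1. The peaks are on hg19, for which no annotation was used here, so no peak was assigned to a gene or to a zinc finger cluster.

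Chromosome 19 had the most m6A peaks per Mb of all chromosomes in each of the 4 samples. siControl replicates had 420 and 540 peaks on it, and siMETTL3 replicates had 633 and 651. This is 7.10 and 9.13 peaks per Mb in siControl and 10.7 and 11.0 in siMETTL3. The next chromosome was chromosome 17 in all samples, another gene-dense chromosome, with 5.15, 5.95, 5.96 and 6.55 peaks per Mb in the same order. The density of chromosome 19 exceeded that of the rest of the genome by 7.14 ± 1.69 peaks per Mb (SD over 4 samples), and it did so in 4 of 4 samples (exact two-sided sign-flip permutation test, p = 0.125, the smallest that 4 samples allow). The peaks covered 10.7, 12.9, 15.1 and 15.3 kb of each Mb of chromosome 19, again the highest of 24.

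**Figure D1:**
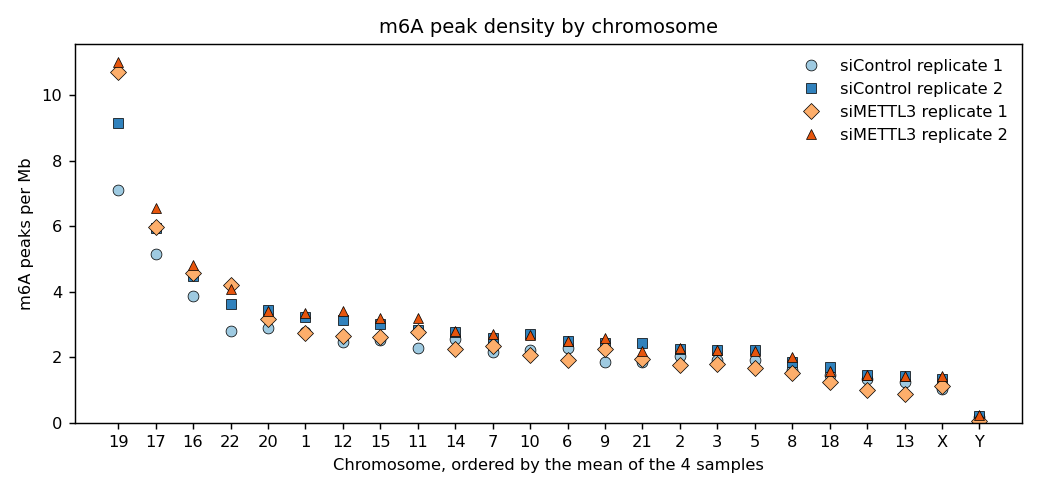
m6A peaks per Mb (y axis) on each chromosome (x axis, ordered by the mean of the samples), with 1 point per sample. The 4 points of chromosome 19 lie between 7.10 and 11.0 peaks per Mb, above all points of every other chromosome.

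Counted per gene, the order was different. Chromosome 19 had 0.289 and 0.372 peaks per protein-coding gene in siControl, below the 0.348 and 0.410 of the other chromosomes together. In siMETTL3 it had 0.436 and 0.449 peaks per gene, above the 0.350 and 0.426 of the others. Its rank among the 24 chromosomes was 21 and 20 in siControl and 3 and 11 in siMETTL3. Genes without expression in HepG2 are in this denominator, since the lists give no expression.

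The peaks of chromosome 19 were long and held many tags, the sequenced fragments counted in a peak. Their median length was 1259 and 1151 bases in siControl and 1117 and 1118 bases in siMETTL3. It exceeded the median of the other chromosomes by 129 ± 75.7 bases (SD over 4 samples), with a difference between 39 and 222 bases (exact two-sided sign-flip permutation test, p = 0.125). Peaks over 2 kb made up 22.1%, 19.3%, 19.7% and 19.2% of the peaks of chromosome 19 in the order siControl 1, siControl 2, siMETTL3 1 and siMETTL3 2, and 13.9%, 13.8%, 15.7% and 12.2% elsewhere. A peak of chromosome 19 held a median of 219, 208.5, 224 and 169 tags in the same order. This was 34.6 ± 8.50 tags more than on the other chromosomes, with a higher value in 4 of 4 samples (exact two-sided sign-flip permutation test, p = 0.125). With peaks of a false discovery rate of at most 50% it was 12.4 tags (exact two-sided sign-flip permutation test, p = 0.375). The median tags per kb of peak were 180.8, 175.9, 193.5 and 145.2. They exceeded those elsewhere by 12.8 ± 6.46, but at that limit the difference turned to −8.26. The rank of chromosome 19 in median length ran from 2 to 8 of 24 over the samples, and its rank in median tags from 3 to 5. The longest median was on chromosome 22 in siControl (1265.5 and 1290.5 bases) and on chromosome 16 in siMETTL3 (1192.5 and 1120.5 bases). Median tags were highest on chromosome 22 in siControl (269.5 and 236) and on chromosome 20 in siMETTL3 (247 and 180).

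Peak strength, taken as the median fold enrichment, did not follow the density. Fold enrichment is the linear ratio of immunoprecipitated over background signal that the peak caller gave. Whether that background came from the input RNA is not given in the sources used here, so it is unknown whether the ratio allows for the level of the transcript. Its median on chromosome 19 was 4.24 and 4.43 in siControl and 4.39 and 4.78 in siMETTL3. These medians ranked 22, 21, 15 and 18 from the highest of 24. The difference from the other chromosomes in median log2 fold enrichment was −0.043 ± 0.042 (SD over 4 samples), close in size to its SD (exact two-sided sign-flip permutation test, p = 0.25). Chromosome 22 had the lowest median in siControl 1 and chromosome 20 in the other samples.

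Neighboring peaks were also closest on chromosome 19. The median distance between neighboring summits was 49.0 and 36.7 kb in siControl and 31.2 and 33.9 kb in siMETTL3, the shortest of all chromosomes in each sample. It was 46.3 ± 7.01 kb shorter than the median elsewhere (exact two-sided sign-flip permutation test, p = 0.125). The nearest chromosome, 16, had 57.5, 46.0, 43.7 and 39.4 kb. The next summit lay within 10 kb for 17.2% of neighboring summits in siControl 1 and for 22.3%, 23.4% and 22.8% in siControl 2, siMETTL3 1 and siMETTL3 2. On the other chromosomes this share was between 14.9% and 17.2%.

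The peaks were not evenly spread along the chromosome, which was divided into 60 bins of 1 Mb. Summits were counted in each bin. The bin with the most peaks lay at 58 to 59 Mb and held 23 and 32 peaks in siControl and 31 and 37 in siMETTL3. By the mean of the samples it ranked 1 among 3113 bins of the genome. The bin at 50 to 51 Mb, with 15, 20, 30 and 24 peaks, ranked 6. At the other extreme, 6 bins (10%) had no peak in any sample, against 37.9% of the bins elsewhere. All 6 lay between 22 and 32 Mb.

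The longest stretch without a peak ran from chr19:24220214 to chr19:28283758, over 4.06 Mb, and in this build it takes in the centromere. Of the next longest stretches, 1 ran from 30433954 to 32836385 (2.40 Mb) and another from 21301974 to 23404630 (2.10 Mb). The bins from 20 to 30 Mb held only 4 and 6 peaks in siControl and 4 and 11 in siMETTL3. Peaks in the 20 Mb before this stretch numbered 187 and 236 in siControl and 309 and 291 in siMETTL3, and those in the bins after 30 Mb numbered 229, 298, 320 and 349. The bounds of these sections were set after the bins had been seen.

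Per bin, the variance over the mean of the peak count (the Fano factor) was 4.12, 4.78, 6.67 and 5.78 on chromosome 19. On the other chromosomes it was 4.09, 4.70, 5.68 and 5.30, and with 2 Mb bins the sign of the mean difference turned. The fullest 10% of the bins held between 23.1% and 26.1% of the peaks of chromosome 19 in the 4 samples, and between 41.6% and 49.6% of those elsewhere. Between 30% and 58.3% of its bins had 10 or more peaks, against 3.11% to 6.16% of the others.

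The main question of the design is what changed with METTL3 siRNA. On chromosome 19 the siMETTL3 samples had more peaks than the siControl samples, 642 ± 12.7 against 480.0 ± 84.9 (SD, n = 2 each), a ratio of 1.34. Each siMETTL3 sample had more than each siControl sample. The difference of 162 peaks is larger than both SDs, but the two-sided exact permutation test gave p = 0.33, the smallest that 2 samples against 2 allow. The difference was 102 peaks without siControl 1. With a false discovery rate of at most 50% it was 59 peaks, and the groups overlapped (two-sided exact permutation test, p = 0.667). The other chromosomes together had 7045 ± 816 peaks in siControl and 7216 ± 1005 in siMETTL3, a ratio of 1.02. That difference was within the SD of either group (two-sided exact permutation test, p = 0.667). The lists hold no RNA level, so a change in m6A and a change in transcript abundance cannot be told apart as the source of a change in peak number. The peaks of chromosome 19 covered 630795 and 764833 bases in siControl and 891578 and 904993 bases in siMETTL3.

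The share of all peaks that lay on chromosome 19 was 6.10% and 6.62% in siControl and 8.87% and 7.59% in siMETTL3. The groups did not overlap, and siMETTL3 1 was the highest. Mean shares were 6.36% ± 0.367 in siControl and 8.23% ± 0.904 in siMETTL3 (SD, n = 2 each), a difference of 1.87 percentage points (two-sided exact permutation test, p = 0.33). Its share of the tags in peaks was 7.62% and 7.56% against 9.81% and 9.30%, a difference of 1.96 points (two-sided exact permutation test, p = 0.33). The logarithm of its peaks over those of the other chromosomes was higher in siMETTL3 by 0.40 in log2 units (two-sided exact permutation test, p = 0.33).

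The higher share was also present among strong peaks, chosen after the lists had been seen. The score of a peak is −10 times the log10 of its p-value. With a score of at least 300, chromosome 19 held 69 and 99 peaks in siControl and 101 and 95 in siMETTL3. This was 6.76% and 7.18% of all such peaks in siControl and 10.1% and 9.57% in siMETTL3. With a score of at least 100 the shares were 5.73%, 6.52%, 9.13% and 8.11% in the same order. At a score of at least 300 the number of peaks on chromosome 19 therefore overlapped between the groups, while its share did not. At a score of at least 100 neither overlapped, with 225 and 315 peaks in siControl and 359 and 380 in siMETTL3.

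The change was compared with that of every other chromosome by limma, on the log2 share of peaks. The fit held the 23 chromosomes with at least 20 peaks in every sample. Chromosome 19 had the largest rise, 0.37 ± 0.092 on the log2 scale (SE, 1.29-fold), with a Benjamini-Hochberg adjusted p of 0.0052. It was 1 of 3 chromosomes called at an adjusted p of at most 0.05, which is 13% of those tested. Chromosome 22 rose too, by 0.31 (limma, adjusted p = 0.0114), and chromosome 13, a gene-poor chromosome, fell by 0.32 (limma, adjusted p = 0.0114). The difference between chromosomes 19 and 22 was not tested. All chromosomes shared 1 estimate of the spread in this fit, and shares of 1 total cannot all rise. No chromosome, 19, 22 and 13 included, was called under any of 7 alternatives. For chromosome 19 the adjusted p was 0.0545 with the replicate number as a block, 0.0562 with equal numbers of peaks and 0.0639 with a score of at least 70. Its call was also lost when any 1 sample was left out. The rise was then 0.31 without siControl 1, 0.43 without siControl 2, 0.26 without siMETTL3 1 and 0.48 without siMETTL3 2, with a limma adjusted p between 0.103 and 0.507.

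**Figure D2:**
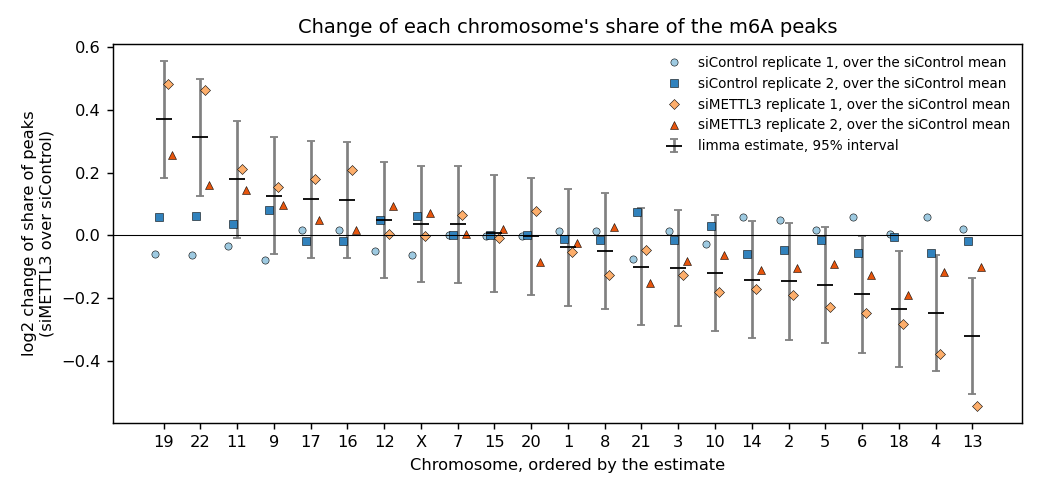
Change of the share of m6A peaks on each of 23 chromosomes (x axis, ordered by the estimate), on the log2 scale (y axis). Horizontal marks and bars are limma estimates of siMETTL3 over siControl with 95% intervals, and points are samples relative to the siControl mean. Chromosome 19 is at 0.37, and both of its siMETTL3 points lie above both siControl points.

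The groups did not overlap, with siMETTL3 higher, for 7 of the 23 chromosomes (30.4%), among them chromosomes 16, 17, 19 and 22. They did not overlap, with siMETTL3 lower, for 10 (43.5%). On chromosome 16 the groups were barely apart, with a share of 5.081% in siControl 1 and 5.083% in siMETTL3 2. The gene-dense chromosomes 16 and 17 had changes of 0.11 each on the log2 scale and were not called (limma, adjusted p = 0.374 each). Chromosomes 4 and 18 had changes of −0.25 and −0.24. Across the 23 chromosomes, which share their libraries, the change of the share and the mean number of peaks per Mb had a Pearson r of 0.72 and a Spearman rho of 0.69. Without chromosome 19, r was 0.63 and rho 0.65 over 22 chromosomes. These are given as a description.

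The change was then followed region by region. Of the 873 regions of chromosome 19, all 4 samples called 283 (32.4%), 3 samples called 170, 2 samples called 156 and a single sample called 264 (30.2%). On the other chromosomes all 4 samples called 31.7% of the regions and a single sample 31.1%. Regions called in more samples were longer and had higher scores, which joining more peaks in part brings about. The median length of a chromosome 19 region rose from 885 bases with 1 sample to 1080.5, 1157 and 1636 bases with 2, 3 and 4 samples. The median of the highest score rose from 67.7 to 93.5, 135.7 and 310.0.

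Regions of 1 group alone were counted next. On chromosome 19, 15 regions (1.72%) had a peak in both siControl samples and in no siMETTL3 sample, against 5.2% of all regions of the genome. In the other direction, 63 regions (7.22%) had a peak in both siMETTL3 samples and in no siControl sample, against 5.25% of all regions. The other chromosomes had 620 and 578 such regions (5.46% and 5.09%). Of the regions with a peak in both siControl samples, 4.24% on chromosome 19 and 11.6% elsewhere had no siMETTL3 peak. Of those with a peak in both siMETTL3 samples, 13.7% on chromosome 19 and 11.5% elsewhere had no siControl peak.

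By chromosome, the share of regions found only in siMETTL3 was highest on chromosome 19, and the share found only in siControl was lowest on chromosome 22 and next lowest on chromosome 19. Chromosome 22 had values close to these, with 5 of its 293 regions (1.71%) only in siControl and 21 (7.17%) only in siMETTL3. Chromosome 17 had 3.84% and 6.22%, and chromosome 16 had 4.33% and 6.58%. Regions with a peak in a single sample also leaned to siMETTL3 on chromosome 19. They numbered 22 and 26 for the siControl samples (2.52% and 2.98%). For the siMETTL3 samples they numbered 114 and 102 (13.1% and 11.7%). Elsewhere the shares were 5.77% and 6.94% for siControl and 6.99% and 11.4% for siMETTL3. The share of siMETTL3 2 alone was thus close to that elsewhere. Regions in the siMETTL3 samples and siControl 2 alone numbered 90 (10.3%), against 5.97% elsewhere.

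**Figure D3:**
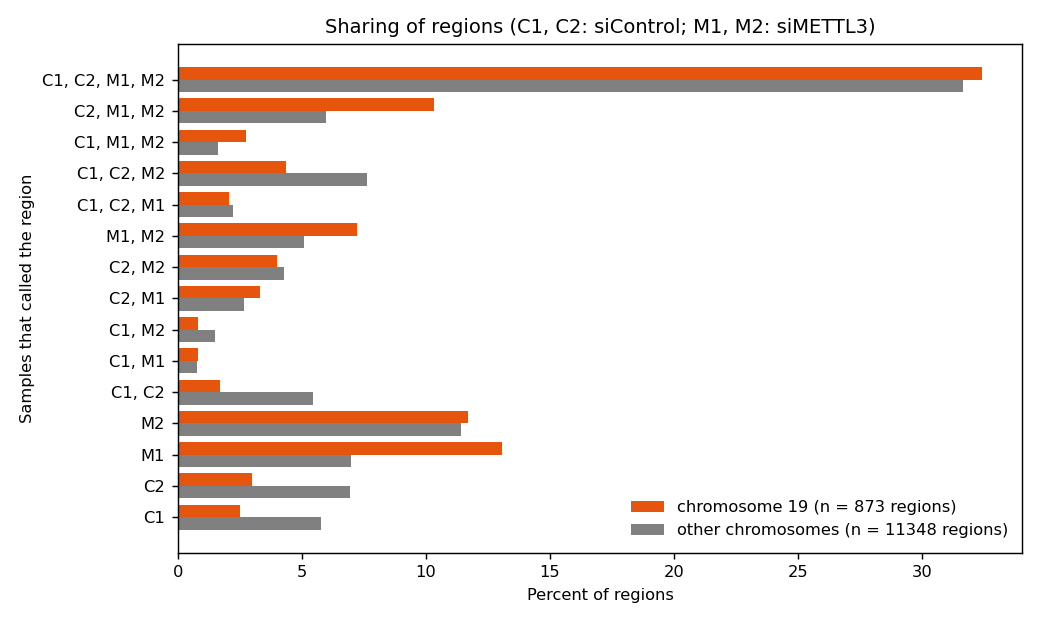
Percent of regions (x axis) on chromosome 19 and on the other chromosomes, by the samples that called the region (y axis, C for siControl and M for siMETTL3 with the replicate number). Chromosome 19 has a smaller share in both siControl samples alone, 1.72% against 5.46%, and a larger one in siMETTL3 replicate 1 alone, 13.1% against 6.99%.

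The regions found in 1 group only were weaker than the shared ones. The 63 regions only in siMETTL3 had a median length of 1108 bases and a median lowest score of 69.8, and in 11 of them (17.5%) both peaks had a score of at least 100. In the 15 regions only in siControl the median lowest score was 63.5, and 2 had both peaks at a score of at least 100. The 283 regions of all samples had a median lowest score of 107, and 152 of them had a score of at least 100 in each sample. The deposited scores begin near 50, so many of the regions of 1 group lay close to the lowest score listed.

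The strongest region only in siMETTL3 was chr19:10404136-10405815, 1680 bases long. Its fold enrichment was 6.0 in siMETTL3 1 and 6.22 in siMETTL3 2, with 178 and 138 tags. The second strongest, chr19:10405816-10407501, begins at the next base and had a fold enrichment of 4.55 and 6.46. The pair touch without overlapping. Among regions only in siControl, chr19:49252869-49254581 was the strongest, with a fold enrichment of 7.02 and 4.83 and with 247 and 195 tags. No peak of the other group overlapped any of these 3 regions. A missing peak gives no level, so no fold change can be given for them.

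The overlap of peaks in bases was measured by the Jaccard index, the bases shared by a pair of samples over the bases in either. On chromosome 19 it was 0.616 between the siControl samples and 0.561 between the siMETTL3 samples. Between samples of different groups it ran from 0.501 to 0.592, and the pair siControl 2 and siMETTL3 2 was above the siMETTL3 pair. On the other chromosomes the corresponding values were 0.615, 0.554 and 0.484 to 0.570.

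Enrichment could be compared in the 283 regions called in all 4 samples. Their median log2 fold enrichment was 2.13 and 2.24 in siControl and 2.19 and 2.32 in siMETTL3, and the groups overlapped. The difference was 0.069 (two-sided exact permutation test, p = 0.667). It depended on single samples and was 0.011 without siControl 1, 0.13 without siControl 2, 0.14 without siMETTL3 1 and 0.0028 without siMETTL3 2. On the other chromosomes the medians were 2.22, 2.32, 2.19 and 2.34, with a difference of −0.0043. The chromosome 19 median therefore lay below that of the others by 0.096 and 0.071 in siControl, and by 0 and 0.020 in siMETTL3. The change of this gap was 0.073, and the groups did not overlap (p = 0.33 by a two-sided exact permutation test, its lower limit). With a score of at least 70 this change was 0.0077, and p was 1.0 by the same exact test.

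In single regions, 186 of the 283 (65.7%) had a higher mean in siMETTL3, against 50.4% of the 3592 shared regions elsewhere. With 1 sample left out, this count ran from 147 without siControl 1 to 210 without siControl 2. The share elsewhere moved with it. Without siControl 1 the share was 51.9% on chromosome 19 against 43.99% elsewhere. Without siControl 2 the share was 74.2% against 56.3%. The quartiles of the change over the 283 regions were −0.065 and 0.25 on the log2 scale. In 76 regions (26.9%) both siMETTL3 samples lay above both siControl samples, against 20.6% of all shared regions. In 35 (12.4%) both lay below, against 21.1%.

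None of these changes passed a test. In limma with Benjamini-Hochberg adjustment over all 3875 shared regions, 0 regions (0%) had an adjusted p of at most 0.05, on chromosome 19 or elsewhere, with 0.373 as the lowest adjusted p. At p under 0.05 before adjustment, 21 of the 283 regions (7.42%) were higher in siMETTL3, against 4.65% of all regions. In the other direction there were 5 (1.77%), against 4.95%. The median change was 0.073 on chromosome 19 and 0.0022 elsewhere, and without siMETTL3 2 it was 0.029 and −0.061. Fold enrichment is a ratio within a sample, so a fall of m6A common to all sites cannot be told apart from no change.

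**Figure D4:**
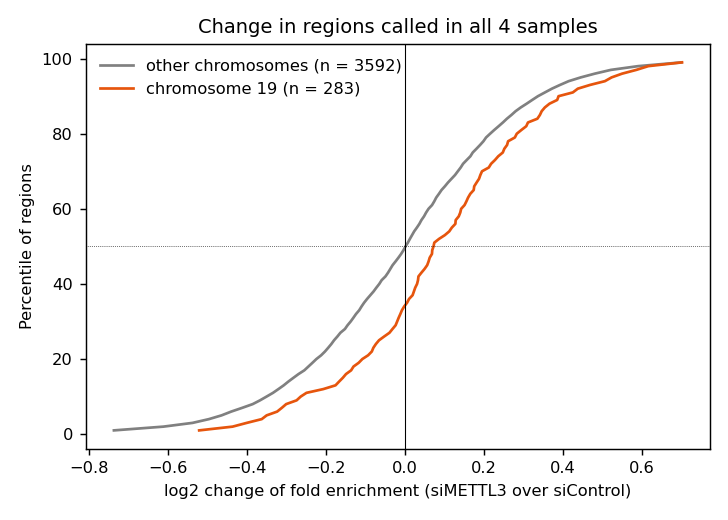
Percentile of regions (y axis) against the log2 change of fold enrichment, siMETTL3 over siControl (x axis), for regions called in all 4 samples. The chromosome 19 curve (283 regions) crosses the 50th percentile at 0.073 and that of the other chromosomes (3592 regions) at 0.0022.

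The region with the largest rise was chr19:39797646-39798918, 1273 bases long. Its fold enrichment was 4.68 and 6.34 in siControl and 11.2 and 12.1 in siMETTL3, with 59, 107, 202 and 151 tags. Both siMETTL3 values were above both siControl values, and the change was 1.09 ± 0.198 on the log2 scale (SE, limma, adjusted p = 0.373). The next were chr19:47852449-47853597 with a change of 0.78 and chr19:2251847-2253224 with 0.75. These were chosen for their change, so their values are a description.

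The largest fall in fold enrichment was at chr19:58805316-58807360, in the fullest bin of the chromosome. There it was 4.91 and 6.69 in siControl and 3.62 and 3.06 in siMETTL3, a change of −0.78 ± 0.207 (SE, limma, adjusted p = 0.404). Its tags did not fall with it and were 313, 354, 388 and 327. At chr19:54597833-54599460 both measures were lower. Its fold enrichment was 8.03, 10.03, 5.35 and 5.63, with 244, 241, 75 and 61 tags. Tags were counted over each sample's own peak, and per kb of peak they were 151, 155, 96.8 and 76.7. The third, chr19:12738632-12740882, had a change of −0.67.

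The region with the highest mean enrichment on chromosome 19 was chr19:49000246-49002805. Its fold enrichment was 10.03 and 9.05 in siControl and 12.4 and 9.98 in siMETTL3, with scores between 1143 and 2382. The groups overlapped, and the change was 0.23 ± 0.183 (SE, limma, adjusted p = 0.700). At chr19:2477109-2478550 it was 7.59, 7.90, 9.21 and 13.3, while the tags were 389, 365, 236 and 145. The number of tags and the enrichment thus moved in opposite directions in that region.

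The region with the most tags, chr19:50153895-50158661, held 2538 and 2828 tags in siControl and 3624 and 2483 in siMETTL3. Its fold enrichment was 2.32, 2.78, 2.38 and 2.74, below the median of the shared regions in each sample. The widest region, chr19:13205234-13210669, was 5436 bases long. It had a fold enrichment of 4.95 and 5.62 in siControl and 5.61 and 6.09 in siMETTL3.

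The additional peaks of siMETTL3 were spread over the chromosome. Of the 60 bins, 43 had a higher mean in siMETTL3, 7 a lower mean and 10 the same. In 25 bins both siMETTL3 samples were above both siControl samples, against 7.29% of the 3113 bins of the genome. In 1 bin, at 32 to 33 Mb, both were below, against 6.14%. Many bins elsewhere held few or no peaks. Of bins with a mean of at least 5 peaks, both siMETTL3 samples were above in 22 of 41 on chromosome 19 (53.7%), against 25% of the 564 in the genome. Both were below in none of the 41, against 6.74%. The first 20 Mb had 1.42 times the siControl number of peaks and the bins after 30 Mb 1.27 times. The first 6 Mb had 64 and 84 peaks in siControl and 132 and 106 in siMETTL3, with siMETTL3 1 the highest. The fullest bin, at 58 to 59 Mb, overlapped between the groups.

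**Figure D5:**
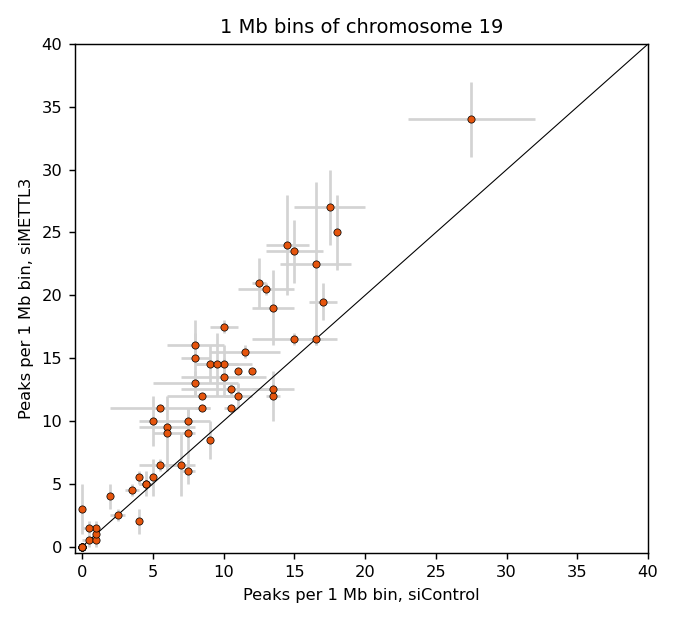
Mean number of m6A peaks in each 1 Mb bin of chromosome 19 in siMETTL3 (y axis) against siControl (x axis). Bars run from replicate to replicate, and the line marks equal numbers. Of the 60 bins, 43 lie above the line.

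A limma fit of log2(peaks + 0.5) over the 564 bins of the genome with a mean of at least 5 peaks called 0 bins (0%) at an adjusted p of at most 0.05. The smallest adjusted p among the 41 bins of chromosome 19 was 0.415. At an unadjusted p under 0.05, 7 of the 41 bins (17.1%) were higher in siMETTL3, against 8.33% of all bins. No bin of chromosome 19 was lower, against 0.887% of all bins. The bin at 18 to 19 Mb had the smallest p, with 9 and 11 peaks in siControl and 18 and 17 in siMETTL3, a change of 0.78 ± 0.141 (SE). The median change of the 41 bins was 0.45, against 0.12 for the other bins tested. Denser bins rose more elsewhere too. With a mean of at least 10 peaks the median change was 0.47 for 29 bins of chromosome 19 and 0.22 for the others. Of these bins, 89.7% rose on chromosome 19 and 75.2% elsewhere.

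The false discovery rate listed with the peaks limits all of these counts. Only 174, 239, 226 and 305 peaks of chromosome 19 had a listed rate of at most 50%, in the order of the samples given above. Their share of all such peaks was 6.01%, 6.67%, 9.63% and 7.81%, with no overlap between the groups. At most 5% was listed for 15 and 25 peaks of chromosome 19 in siControl and for 2 and 1 in siMETTL3. The other chromosomes together had 186 and 259 such peaks in siControl and 4 and 5 in siMETTL3, so their number was low across the genome in siMETTL3. Library depth is not in these lists, and its part in the numbers of peaks was not tested.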

How the data were processed

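The authors extracted mRNA of HepG2 cells, immunoprecipitated fragments with an antibody to m6A and deposited 1 peak list per immunoprecipitated sample. The submitters' processing notes name CASAVA 1.8.2, MACS 1.4.2 and hg19, with no settings. Tags per peak were deposited as counts over each sample's own peak, not normalized for depth. The score and the fold enrichment (a linear ratio) were deposited as the peak caller gave them, and the false discovery rate was deposited in percent. No peak ended past the end of an hg19 chromosome. Chromosome lengths came from GenomeInfoDb 1.38.1.

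The members and the tests were chosen with earlier results of these data known. Groups and replicate numbers came from the sample titles. Peaks were merged across samples where they overlapped by at least 1 base, and the highest peak of a sample in a region gave its enrichment. Single values per sample were compared by exact two-sided permutation over 6 relabellings. Chromosome 19 was compared with the rest by sign flips within samples. Tag counts cover other intervals in every sample, so they were given no count model. limma 3.58.1 (lmFit and eBayes, with Benjamini-Hochberg adjustment) was fitted over all shared regions, chromosomes and 1 Mb bins, and was tested on simulated data. The regions named were, on chromosome 19, the 3 with the highest enrichment, most tags, greatest width, largest rise and largest fall among those called in all 4 samples, and the 3 strongest of each group alone. Some are given by position only or left out of the text. Python 3.11.15, numpy 2.4.6, pandas 2.3.3, scipy 1.17.1, R 4.3.3 and matplotlib 3.10.9 were used. Depth is unknown, so no counting interval is given. Input libraries and the coordinates of GRCh38 tables were not used here. Alternatives were a score of at least 70, a false discovery rate of at most 50%, equal numbers of peaks, other bins and filters, other scaling of enrichment, the replicate block and leaving out each sample.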

Additional observations from a re-analysis of the deposited data

How the results depend on the processing

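The limma rise of the share of chromosome 19, 0.37 on the log2 scale, was past the threshold only as first fitted. With the replicate block, which pairs samples by number alone, it was 0.37 (adjusted p = 0.0545). It was 0.40 (adjusted p = 0.0562) with equal numbers of top-scoring peaks, 0.43 (adjusted p = 0.0639) with a score of at least 70, and 0.26 to 0.48 with 1 sample left out. In those fits the lone sample of a group is assumed to vary like the other group. The difference in share of peaks was 1.87 points and stayed between 1.23 and 2.86 points under all alternatives, those with a score of at least 100 or 300 having been added after seeing the data.

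The chromosome 19 excess in tags per kb, 12.8, turned to −8.26 with a false discovery rate of at most 50%. At that limit the excess in peaks per Mb went from 7.14 to 3.02, the excess in tags per peak from 34.6 to 12.4 and the difference in summit distance from −46.3 to −185 kb, each in the same direction. The share of regions called in all 4 samples, 0.76 points higher on chromosome 19, differed by −0.62 points with a score of at least 70 and by −0.23 points with equal numbers of peaks. The change of median log2 enrichment in its shared regions, 0.069, turned to −0.0034 with a score of at least 70. The excess of its Fano factor, 0.39, turned to −0.0051 with 2 Mb bins. Regions only in siControl fell from 15 to 8 with a score of at least 70, and regions only in siMETTL3 from 63 to 23 with a false discovery rate of at most 50%. The cause was not tested in any of these cases. Limits on the score or the false discovery rate kept fewer peaks, while the 2 Mb bins used all of them. The limma fits called 0 regions and 0 bins of chromosome 19 under every alternative run. Groups of 2 and the unknown depth limit each comparison.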
